A study of Mus musculus with 21 samples.

Results

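A skipped exon, or cassette exon, is an internal exon that some transcripts of a gene include and others leave out, so that 2 introns in one form are replaced by 1 intron in the other. The long-read transcripts of mouse gametes and preimplantation embryos held 1669 such events among 5714 alternative splicing (AS) events of 7 types (29.2%, 95% Wilson interval 28.04 to 30.4). An event was taken wherever, within 1 locus of the merged transcripts, the 2 introns that flank an exon in 1 transcript were replaced by a single intron with the same outer splice sites in another. The events used 1627 distinct exons in 1238 named genes or loci, 1493 of the events lay in protein-coding genes, and 80 had no gene in the annotation. The other types were alternative first exons (1486), alternative 5′ splice sites (1130), alternative 3′ splice sites (941), retained introns (252), alternative last exons (168) and mutually exclusive exons (68). The material was DBA/2J sperm, C57/BL6J oocytes taken 20 h after hCG, and embryos of DBA/2J males and C57/BL6J females. The embryos were collected at the 1-cell (24 to 26 h after hCG), 2-cell (46 to 48 h), 4-cell (54 to 58 h), 8-cell (68 to 70 h) and blastocyst (94 to 96 h) stages. The collection protocol names the males DBA/2N. All oocytes and embryos came from females of 3 to 5 weeks superovulated with PMSG and hCG, the embryos were cultured in KSOM, and every library was amplified from the cDNA of pooled cells. Each stage had 2 short-read libraries (14 in all) and 1 long-read pool (7 in all) that mixed 2 batches. Any difference between stages is therefore one between pools of whole gametes or embryos, and p-values measure only the spread between the 2 libraries of a stage.

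In the spliceosome, an internal exon is recognised through the splice sites on both of its sides, with SR proteins and hnRNPs bound to the exon and its introns favouring or opposing that recognition. When a coding exon has a length that is a multiple of 3, inclusion and skipping keep the same reading frame downstream. Skipping or including any other length shifts the frame and often brings a premature stop codon, which can send the mRNA to nonsense-mediated decay (NMD). Oocytes carry a store of maternal mRNA that was spliced during growth, and in mouse most of it is replaced by embryonic transcripts from the 2-cell stage on. The level of an exon is given below as PSI, the TPM of the transcripts that include it over the TPM of the transcripts that include or skip it, from 0 (always skipped) to 1 (always included).

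Of the exons named below, 8 short ones in coding sequence are printed first, because the whole alternative segment can be read. Those of Trappc13, Hnrnpa2b1 and Srsf7 were not called, and that of Dab2 was not tested over the 6 stages. The exon is in capitals, the coding bases of the neighbouring exons are in lower case (up to 15 on each side), and all run 5′ to 3′ on the gene's strand. Positions and bases are those of GENCODE release 21 on mm10.
Nsfl1c, 6 bases, chr2:151502455-151502460, + strand: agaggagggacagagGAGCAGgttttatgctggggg
Vps29, 12 bases, chr5:122356794-122356805, + strand: atgGCTGGGCACAGAttggtgttggtacta
Trappc13, 18 bases, chr13:104152165-104152182, - strand: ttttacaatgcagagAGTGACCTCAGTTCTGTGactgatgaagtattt
Denr, 20 bases, chr5:123915191-123915210, + strand: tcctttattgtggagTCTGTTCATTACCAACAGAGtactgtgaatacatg
Hnrnpa2b1, 36 bases, chr6:51467391-51467426, - strand: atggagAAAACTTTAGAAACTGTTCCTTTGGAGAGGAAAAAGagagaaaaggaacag
Srsf7, 36 bases, chr17:80202169-80202204, - strand: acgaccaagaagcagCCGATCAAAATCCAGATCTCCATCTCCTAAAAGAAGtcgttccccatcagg
Riok1, 57 bases, chr13:38046851-38046907, + strand: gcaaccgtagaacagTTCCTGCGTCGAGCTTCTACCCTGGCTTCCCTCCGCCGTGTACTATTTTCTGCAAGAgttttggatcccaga
Dab2, 63 bases, chr15:6424635-6424697, + strand: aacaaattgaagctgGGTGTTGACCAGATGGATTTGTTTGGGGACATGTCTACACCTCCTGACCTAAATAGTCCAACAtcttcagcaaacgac
Of these 8 exons, the 20-base exon of Denr is the only one whose length is not a multiple of 3. In Vps29 and Hnrnpa2b1 the exon directly follows the exon that holds the start codon, so the included form differs close to the N terminus.

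Skipped exons were shorter than other internal exons and lay between longer introns. Their median length was 105 bases (quartiles 71 and 150, range 1 to 1563) against 116 bases (84 and 155) for the 53771 internal exons that no event skips. The median upstream and downstream introns were 1411 and 1546 bases, against 1274 and 1172. Exons of at most 27 bases made up 2.10% of the events (35 of 1669) and 1.15% of the other internal exons, while 55 skipped exons were longer than 300 bases. GC content was similar, with a median of 50.4% for the 1285 skipped exons whose bases could be read and 49.3% for 50709 others. The last 2 bases were AG, the usual exon end before a 5′ splice site, in 53.2% and 55.6%. Most genes had 1 event (950) and 190 had 2, whereas 9 genes had 5, among them Mdm4, Mdm2's relative in the control of p53, and Tbp, which encodes the TATA-box-binding protein. The locus with the most events was XLOC_007638, with 7, and C86187 had 6.

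The frame stood out in coding exons. A length that is a multiple of 3 was found for 706 of the 1669 skipped exons (42.3%, 95% Wilson interval 40.0 to 44.7), against 38.1% (37.7 to 38.5) of the other internal exons and 38.2% of those in genes that also had a skipped exon. Among wholly coding exons the share was 50.6% (421 of 832, 47.2 to 54.0) against 38.8% (38.3 to 39.2 of 47031). It was 55.4% (50.7 to 59.9, 243 of 439) where the annotation holds both forms, and 45.6% (40.5 to 50.8, 161 of 353) where it holds the inclusion form alone. Outside coding sequence the shares were nearer to those of unskipped exons, at 33.7% and 28.4% in 5′ UTRs, 33.8% and 32.2% for exons seen only in NMD transcripts, and 35.9% and 34.0% for exons that the annotation lacks. For exons of noncoding transcripts the share was lower when skipped, 27.5% against 37.1%, with intervals that overlapped. The intervals cover the counting of exons only.

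**Figure D1:**
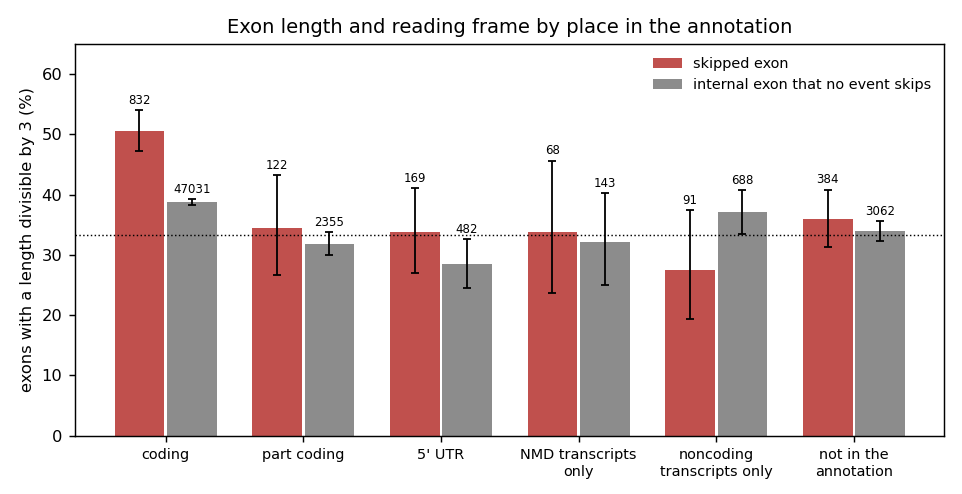
The bars give the percentage of exons whose length is divisible by 3, by their place in the annotation, for skipped exons (red) and for internal exons that no event skips (grey). Error bars are 95% Wilson intervals, the numbers above the bars are exons, the dotted line marks 1 exon in 3, and among coding exons the intervals do not overlap (50.6% and 38.8%).

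A majority of events were not yet complete in the annotation. All 3 introns of an event were annotated for 768 events (46.0%), while for 428 only the inclusion form, for 264 only the skipping form and for 209 neither form was annotated. In 1376 events (82.4%) at least 1 included and 1 skipping transcript had the same introns apart from those at the exon. In 1559 (93.4%) the nearest starts of an included and a skipping transcript lay within 300 bases of each other. In the long-read pools, both forms of an event were most often seen together in a single pool. That was so for 972 events, while 288 had both forms in 2 pools, 94 in 3, 27 in 4, 13 in 5, 4 in 6, 4 in 7 and 267 in none. The numbers of events with both forms were 206 in sperm, 258 in oocytes, 249 at the 1-cell, 346 at the 2-cell, 367 at the 4-cell and 373 at the 8-cell stage, and 256 in blastocysts. Because each stage had 1 pool, this order has no replicate check. Among coding exons with both forms in at least 3 pools, 60.5% (49.6 to 70.4, 49 of 81) had a length that is a multiple of 3. The share was 49.1% (44.6 to 53.5) with both forms in 1 pool, 50.0% in 2 pools and 50.8% in none. The intervals of these classes overlapped.

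The form found in the long-read pool went with the short-read PSI of the same stage. Where the pool held the inclusion form alone, the median PSI ran from 0.863 at the 2-cell stage to 0.967. With the skipping form alone it ran from 0.0484 in oocytes to 0.130 at the 2-cell stage. Events with both forms in the pool lay between, at medians of 0.49 to 0.66. The TPM values were estimated over transcripts that include those of the pool, so the 2 readouts share their transcript models.

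**Figure D2:**
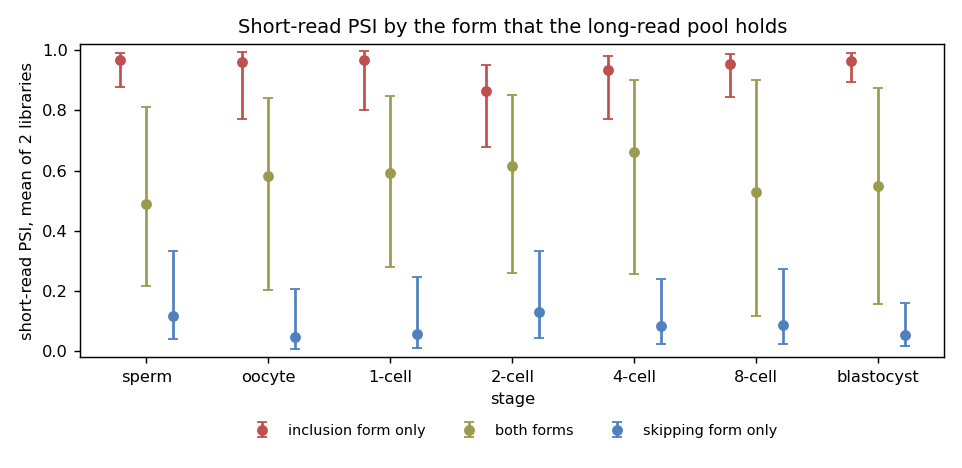
Points give the median short-read PSI (y axis, mean of 2 libraries) of the events whose long-read pool held the inclusion form only (red), both forms (olive) or the skipping form only (blue), and bars run between the quartiles. In each of the 7 stages the 3 classes kept the same order.

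Short-read libraries measured most of the events. A summed TPM of at least 5 over both forms was reached in at least 2 libraries by 1627 events, and in a single library by 1006 (sperm 2) to 1488 (2-cell 2). TPM keeps no read depth, so the number of reads behind a PSI is unknown. Pearson's r of PSI between the 2 libraries of a stage, across events, was 0.909 in sperm, 0.957 in oocytes, 0.970, 0.880, 0.978 and 0.977 at the 1-, 2-, 4- and 8-cell stages, and 0.973 in blastocysts. At the 2-cell stage 21.1% of the exons differed by more than 0.2 between the libraries, against 2.81% at the 4-cell stage. The 2-cell libraries also stood apart in stage markers: the summed TPM of 8 oocyte and maternal genes was 116 and 1327, and that of 6 genes of the 2-cell stage 26.2 and 447, in libraries 1 and 2. Where 2-cell values of a named exon are given below, both libraries are therefore shown. Some named exons are given without 2-cell values. Sperm markers summed to 14026 and 20770 TPM in sperm and to at most 16.98 elsewhere, and 8 blastocyst markers to 10415 and 37579 in blastocysts and to at most 955 elsewhere. The 6 cumulus and granulosa markers had no merged transcript and so say nothing of those cells.

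The overall level of PSI was lowest in 1 of the 2-cell libraries. The median over exons was 0.498 in 2-cell 2 and 0.564 to 0.713 in the other 13 libraries, with 0.616 in 2-cell 1. The share of exons with a PSI between 0.1 and 0.9 was 66.3% in 2-cell 2, 55.0% in 2-cell 1, 53.2% and 53.9% at the 4-cell stage, and 38.6% to 48.0% elsewhere. For the other event types this share ran from 42.9% to 63.0%, and the extremes were the same 2 libraries, blastocyst 2 and 2-cell 2. Exons for which only the inclusion form is annotated had medians of 0.913 and 0.819 in the 2-cell libraries and 0.924 to 0.980 in all others, and those with only the skipping form annotated had medians of 0.0295 to 0.0905. The medians of annotated inclusion forms in both 2-cell libraries thus lay below those of all other libraries.

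Over all exons the reading frame made no steady difference to PSI. The median PSI of exons with a length that is a multiple of 3 minus that of the rest was −0.067 ± 0.0011 (SD, n = 2) in sperm, 0.026 ± 0.011 in oocytes, 0.051 ± 0.058 at the 1-cell and −0.017 ± 0.028 at the 2-cell stage. It was −0.034 ± 0.013 and −0.036 ± 0.012 at the 4- and 8-cell stages and −0.010 ± 0.0030 in blastocysts. Among coding exons with both forms annotated, however, those that keep the frame had the lower median in 14 of 14 libraries. Their medians ran from 0.554 (2-cell 2) to 0.712 (1-cell 2), against 0.692 (2-cell 2) to 0.929 (blastocyst 2) for those that shift it. In oocytes the values were 0.633 and 0.663 against 0.888 and 0.883, and in blastocysts 0.653 and 0.692 against 0.899 and 0.929. Within each stage the library medians of the 2 classes did not overlap, while the spread of PSI over the exons of each class was not compared. Where only the inclusion form is annotated the classes lay close together, with the exons that keep the frame above in 12 of 14 libraries. The libraries share the same exons and do not repeat the comparison independently.

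**Figure D3:**
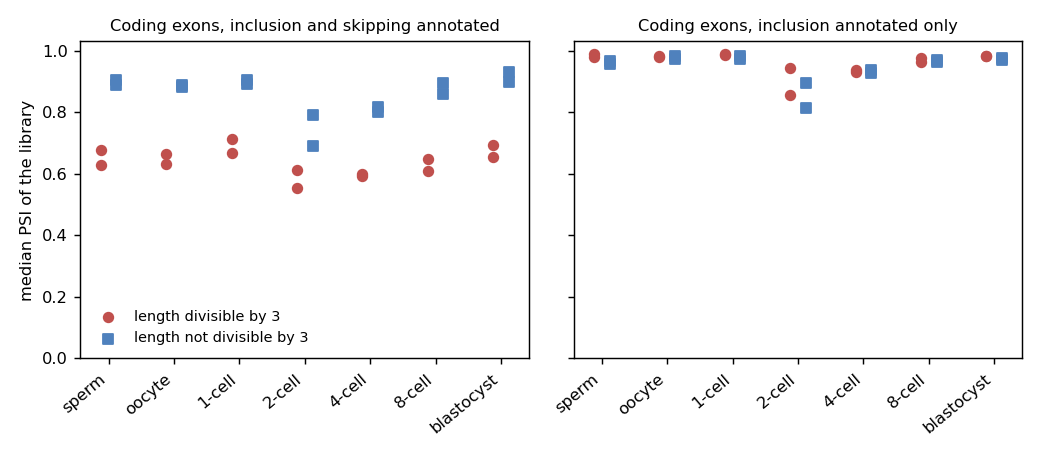
Each point is the median PSI (y axis) of coding skipped exons in 1 library, by stage (x axis), for exons whose length is divisible by 3 (red circles) and for other lengths (blue squares). With both forms annotated (left) the red points lie between 0.554 and 0.712 and below the blue points of the same library, while with the inclusion form annotated only (right) the classes lie close together.

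For each pair of consecutive stages, limma compared the ratio of inclusion to skipping TPM on the log2 scale, each with 1 TPM added, over the 4 libraries and all AS event types. An event was called at a Benjamini-Hochberg adjusted p under 0.05 with a difference of mean PSI over 0.1. In the other types PSI is the share of the longer exon, the retained intron or the form first on the chromosome. Shares of all events called higher or lower are therefore no baseline for exon inclusion. Few exons passed, and they were nearly all between the 4-cell and 8-cell stages. From oocyte to 1-cell none of 1208 exons was called (0% of all 3939 events), with 56 at an unadjusted p under 0.05, and the median absolute difference of PSI was 0.024. PSI did not overlap and differed by over 0.1 for 109 exons (9.02%, against 11% of all event types). From 1-cell to 2-cell 1 of 1281 was called, a fall (0.167% of all events, 0.0476% called as higher and 0.119% as lower), although 307 had an unadjusted p under 0.05 and the median absolute difference was 0.085. The PSI of the 2 stages did not overlap for 757 exons (59.1%, against 51% of all event types), and also differed by over 0.1 for 479 exons (37.4%, against 33% of all event types), of which 168 were higher and 311 lower at the 2-cell stage. From 2-cell to 4-cell none of 1442 was called (0% of all events, 240 at an unadjusted p under 0.05, median absolute difference 0.065), and from 8-cell to blastocyst none of 1289 (0%, 222 and 0.031). From 4-cell to 8-cell 30 of 1352 were called (2.22%, against 3.46% of all events), 22 of them higher (1.85% of all events) and 8 lower (1.61%) at the 8-cell stage, in 28 genes, with a median absolute difference of 0.040.

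In a fit of all 12 libraries from oocyte to blastocyst, which share 1 spread, 208 exons were called from 1-cell to 2-cell (63 higher, 145 lower), and 71 when each stage had a weight of its own. The 4-cell to 8-cell calls numbered 2 and 115 in these fits. All 30 were lost with a pseudocount of 0.1, on PSI itself, or when any of the 4 libraries was left out, and the single 1-cell to 2-cell call was lost in the same settings. From 2-cell to 4-cell 65 exons were called without 2-cell replicate 2.

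In this and the following paragraphs the largest differences are those without overlap among exons with a mean summed TPM of at least 10 over the libraries compared. From oocyte to 1-cell none of them passed the test of this transition. St13, a co-chaperone of Hsp70, had a 203-base exon with PSI 0.919 and 0.810 in oocytes and 0.399 and 0.449 at the 1-cell stage (log2 ratio −3.11 ± 0.63 SE, limma adjusted p = 0.555). Its PSI lay at 0.715 or above in every later library. The noncoding gene AC158982.1 had a 159-base exon with 0.357 and 0.411 in oocytes and 0.821 and 0.870 at the 1-cell stage (adjusted p = 0.555 by limma). Exons of 0610033M10Rik (232 bases) and of the locus XLOC_013968 (122 bases) had mean differences of 0.554 and −0.360. Neither had an annotated form.

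The 1 exon called from 1-cell to 2-cell was the 96-base coding exon of Creld2 (chr15:88823067-88823162), an endoplasmic reticulum protein induced by unfolded proteins. Its PSI was 0.997 and 0.995 in oocytes, 0.998 and 0.999 at the 1-cell, 0.690 and 0.611 at the 2-cell, 0.813 and 0.817 at the 4-cell and 0.974 and 0.981 at the 8-cell stage, and 0.993 and 0.995 in blastocysts. The 2-cell and 4-cell libraries thus lay below all others, and the long-read pools held both forms at those 2 stages alone. The log2 ratio was lower by 7.33 ± 0.72 (SE) at the 2-cell than at the 1-cell stage (limma adjusted p = 0.0456), and from 4-cell to 8-cell the exon was called again in the other direction (difference 0.162, adjusted p = 0.0375). The summed TPM of both forms was 538 to 876 in the libraries of the first comparison. The annotation holds no skipping form of this exon.

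Above that TPM, exons of 2 mitochondrial genes had the largest rise of mean PSI to the 2-cell stage, and the test did not call them. Sod2, the superoxide dismutase of the matrix, had a 142-base exon outside the annotation with PSI 0 in both oocyte and both 1-cell libraries, and 0.831 and 0.499 at the 2-cell stage (adjusted p = 0.0694 by limma). It then stood at 0.324 and 0.463 at the 4-cell and 0.0766 and 0.113 at the 8-cell stage, and at 0.0123 and 0.0118 in blastocysts. The fall from 4-cell to 8-cell was called (log2 ratio lower by 2.55 ± 0.43, limma adjusted p = 0.0433). Timm9, a chaperone of the intermembrane space that carries proteins to the inner membrane, had a 98-base exon with 0.0791 and 0.0915 at the 1-cell and 0.691 and 0.865 at the 2-cell stage (adjusted p = 0.0837 by limma). In blastocysts it was at 0.187 and 0.260. Both exons peaked in the 2-cell libraries, and neither is in the annotation.

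From 2-cell to 4-cell the rule named exons that were not called. Alg3, a mannosyltransferase of N-glycan assembly, had a 100-base coding exon with PSI 0.268 and 0.134 at the 2-cell and 0.749 and 0.768 at the 4-cell stage (log2 ratio 3.02 ± 0.52, limma adjusted p = 0.255). The 66-base 5′ UTR exon of Pex2, a peroxisomal ubiquitin ligase, had 0.851 and 0.569, then 0.280 and 0.122 (adjusted p = 0.266 by limma). The 89-base exon of Pde6d, a carrier of prenylated proteins, had 0 and 0.109 at the 2-cell stage, then 0.999 and 0.268, so that 1 library set its mean. Akap7, an anchor of protein kinase A, had a 94-base 5′ UTR exon at 1 and 0.476, then 0.223 and 0.157.

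The called rises from 4-cell to 8-cell were led by a 65-base exon of Ceacam10, a member of the carcinoembryonic antigen family of adhesion molecules. Its PSI went from 0.128 and 0.137 at the 4-cell stage to 0.869 and 0.881 at the 8-cell stage, with 0.914 and 0.890 in blastocysts (log2 ratio 4.39 ± 0.33, limma adjusted p = 0.0224). The summed TPM was 7.15 and 6.22 before and 26.0 and 39.4 after, and before the 4-cell stage it was 14.4 or less. In those earlier libraries PSI was uneven, at 0.151 and 0.548 in oocytes, 1.11e-05 and 0 at the 1-cell and 0 and 0.409 at the 2-cell stage. Tesc, tescalcin, a calcium-binding protein, had a 156-base exon outside the annotation at 0.266 and 0.264, then 0.757 and 0.672 (adjusted p = 0.0394 by limma). In blastocysts the libraries disagreed, at 0.345 and 0.801. Both forms of Tesc were abundant in oocytes (1862 and 3252 TPM, PSI 0.184 and 0.190) and low at the 8-cell stage (5.61 and 9.30 TPM). The 104-base coding exon of Tmem161b had 0.586 and 0.561, then 0.952 and 0.958 (adjusted p = 0.0371 by limma), and 0.815 and 0.671 in blastocysts. The 114-base exon of Iscu, the scaffold on which iron-sulphur clusters are built, had 0.706 and 0.592 at the 4-cell stage and 1 in both 8-cell libraries (adjusted p = 0.0394 by limma). It had been at 0.985 and 1 in oocytes and at 1 in both 1-cell and both 2-cell libraries. In blastocysts it was at 0.641 and 0.957. The skipping form at the 4-cell stage was at 4.68 and 2.53 TPM.

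The called falls from 4-cell to 8-cell were led by Vps29, a subunit of the retromer that returns cargo from endosomes. The 12-base exon printed above had a PSI of 0.589 and 0.50 at the 4-cell and 0.0787 and 0.10 at the 8-cell stage (log2 ratio lower by 3.46 ± 0.36, limma adjusted p = 0.0375). It had been at 0.0285 and 0.0683 in oocytes, 0.0804 and 0.110 at the 1-cell and 0.423 and 0.718 at the 2-cell stage, and was at 0.0659 and 0.0590 in blastocysts. The 4 libraries of the 2- and 4-cell stages thus lay above all other embryo and oocyte libraries, with sperm in between (0.252 and 0.385). Lrr1, the substrate receptor with which a cullin ligase removes the replicative helicase from chromatin, had a coding exon of 722 bases at chr12:69174392-69175113. Its PSI was 1 and 0.999 in oocytes, 0.998 and 0.999 at the 1-cell, 0.972 and 0.859 at the 2-cell, 0.721 and 0.646 at the 4-cell and 0.299 and 0.301 at the 8-cell stage, and 0.365 and 0.352 in blastocysts. The log2 ratio fell by 2.34 ± 0.35 from 4-cell to 8-cell (limma adjusted p = 0.0394), at a summed TPM of 939 to 1358. A 78-base 5′ UTR exon of Mdm4 fell from 0.909 and 0.859 to 0.553 and 0.643 (adjusted p = 0.0431 by limma).

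Further called exons from 4-cell to 8-cell are named here after their values were seen. The list of cell cycle and DNA repair genes had the most calls of the gene lists, 5 of 48 exons (4 higher, 1 lower), against 30 of 1352 exons in all. Of these 5 exons, 3 belong to 1 gene, Mdm4, so they are not independent. Cdk2, a kinase of S phase, had a 144-base coding exon at a mean PSI of 0.138 and then 0.459. Cenpa, the histone of centromeres, had a 54-base exon, annotated in NMD transcripts only, at 0.0815, then 0.288. Mdm4 had 3 called exons, of which those of 75 and 78 coding bases rose (0.701 to 0.961 and 0.511 to 0.858) while the 5′ UTR exon fell. Outside the list, Prc1, a bundler of spindle midzone microtubules, had a 42-base coding exon at 0.0406, then 0.181.

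From 8-cell to blastocyst no exon was called, although the named exons differed in both libraries. Cortactin (Cttn), which binds branched actin, had a 111-base coding exon with PSI 0.0149 and 0.0551 at the 8-cell stage and 0.508 and 0.634 in blastocysts (log2 ratio 4.69 ± 0.57, limma adjusted p = 0.205). The exon had been at 0.126 and 0.142 at the 2-cell and 0.0144 and 0.0148 at the 4-cell stage. Before that it was at 0 and 0.848 in oocytes and 0.799 and 0.738 at the 1-cell stage. The summed TPM was only 0.653 to 2.80 in these oocyte and 1-cell libraries. The 18-base exon of Trappc13, a component of a vesicle tethering complex, was at 0.0305 and 0.0616 and then 0.512 and 0.606 (log2 ratio 3.91 ± 0.46, limma adjusted p = 0.205). Its long-read pools held the skipping form alone from the 2-cell to the 8-cell stage and both forms in blastocysts. In the other direction were 5′ UTR exons of Gnpnat1, an enzyme of hexosamine synthesis (59 bases, 0.739 and 0.770, then 0.328 and 0), and of Psmd14, a deubiquitinase of the proteasome lid (128 bases, 0.679 and 0.606, then 0.280 and 0.121). All 4 exons had groups that did not overlap, as did 217 of 1289 exons with a difference over 0.1 (16.8%, against 17% of all event types).

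**Figure D4:**
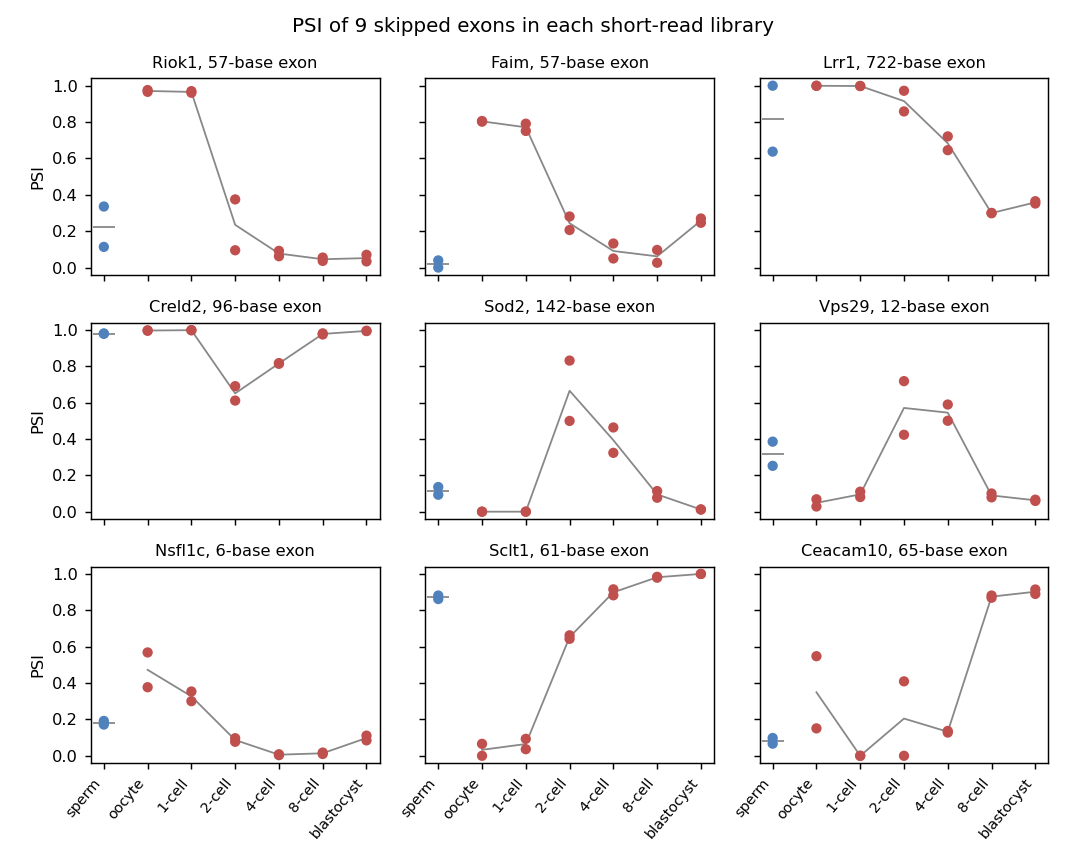
Each panel plots the PSI (y axis) of 1 skipped exon in the 14 short-read libraries by stage (x axis), with oocyte and embryo libraries in red, sperm in blue, and the grey line or dash at the mean of 2 libraries. Riok1, Faim and Lrr1 start high in oocytes, Creld2 dips and Sod2 and Vps29 peak at the 2-cell stage, and Ceacam10 rises between the 4-cell and 8-cell stages.

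More exons were called between oocyte and sperm than between any pair of consecutive stages in the same test. Of 981 exons tested 123 were called (12.5%, against 14.3% of all events), in 113 genes. In sperm 80 were higher (8.18% of all events) and 43 lower (6.09%), where the shares of all events are again no baseline for exon inclusion. PSI did not overlap and differed by over 0.1 for 408 exons (41.6%, as in all event types). The called exons kept the frame as often as not in proportion, with 52 of 422 multiples of 3 (12.3%) and 71 of 559 others (12.7%). All calls were lost without sperm replicate 2, and their number was 44 without sperm replicate 1, 35 without oocyte replicate 1 and 21 without oocyte replicate 2. The 4 epididymal and leukocyte markers with a merged transcript (Lcn8, Crisp1, Ptprc and Cd52) were all above 1 TPM in both sperm libraries. They summed to 6001 TPM in sperm 1 and 677 in sperm 2 against 1.85 and 0.0383 in oocytes, and their part in these differences was not tested.

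The rises in sperm were led by exons of genes with varied roles. The 145-base exon of Acads, the short-chain acyl-CoA dehydrogenase of mitochondria, had PSI 0.00548 and 0.00454 in oocytes and 0.918 and 1 in sperm (log2 ratio 9.15 ± 0.70, limma adjusted p = 0.00684), with summed TPM of 492 and 775 in oocytes and 4.78 and 2.68 in sperm. Here the forms started 9018 bases apart, so the exon goes with the choice of start. The 44-base exon of Rnaset2b, a secreted ribonuclease, had 0 and 0.0165, then 0.979 and 1 (adjusted p = 0.00924 by limma), but the gene has a near-identical copy, Rnaset2a, so its value is uncertain. The 319-base exon of Dsn1, a kinetochore protein, was at 0.0661 and 0.0483, then 1 in both sperm libraries, at a summed TPM there of 1.029 and 2.68. Rnps1, a splicing activator that joins the exon junction complex, had a 122-base 5′ UTR exon at 0.0911 and 0.0276, then 0.855 and 0.978 (adjusted p = 0.0174 by limma).

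The leading falls in sperm included exons of the same length in 2 protein-coding genes. The 57-base exon of Riok1, a kinase needed to mature the small ribosomal subunit, had PSI 0.976 and 0.966 in oocytes and 0.114 and 0.336 in sperm (log2 ratio lower by 6.09 ± 0.71, limma adjusted p = 0.0095). The 57-base exon of Faim, an inhibitor of Fas-induced apoptosis, had 0.806 and 0.802, then 0 and 0.0393 (log2 ratio −5.70 ± 0.73, limma adjusted p = 0.0096). Hint1, a nucleotide hydrolase, had a 115-base exon at 0.590 and 1, then 0 in both sperm libraries, and the noncoding gene Gm3143 a 71-base exon at 0.799 and 0.887, then 0. The summed TPM was low for Hint1 in oocytes (5.56 and 2.59) and for Gm3143 in sperm (2.65 and 8.81). In all 4 exons the oocyte libraries lay above both sperm libraries.

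Over the 6 stages from oocyte to blastocyst, an F test of limma on the 12 libraries called 334 of 965 exons (34.6%, against 28.1% of all AS events and 25.05% of the other types together). Single types ranged from 14.6% for alternative 3′ splice sites to 42.2% for alternative last exons, with 35.1% for alternative first exons. The difference between skipped exons and the other types was not tested. The test gives all stages 1 spread, although the libraries of the 2-cell stage differed most. The called exons lay in 288 genes. Their stage means spanned more than 0.3 for 179 and more than 0.5 for 71, and 113 had stage means on both sides of 0.5. Exons that keep the frame were called as often as the rest, 145 of 426 (34.0%) and 189 of 539 (35.1%). Exons with both forms annotated were called in 38.2% (192 of 502), with the inclusion form alone in 33.2% and with the skipping form alone in 24.2%. Exons for which at least 1 included and 1 skipping transcript had the same other introns were called in 36.1% (284 of 787). PSI sums all transcripts of each form, so these calls can still rest on transcripts that differ elsewhere.

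The highest stage mean of a called exon was most often in oocytes (99, 29.6%, against 25.9% in the other event types). The 1-cell stage (74, 22.2% against 15.7%) and blastocysts (60, 18.0% against 14.4%) followed. Then came the 8-cell (42, 12.6% against 13.1%), 2-cell (41, 12.3% against 19.4%) and 4-cell stage (18, 5.39% against 11.5%). The lowest was at the 2-cell stage for 111 of the 334 exons (33.2%), in oocytes for 65 and at the 4-cell stage for 56. It was at the 1-cell stage for 37, in blastocysts for 35 and at the 8-cell stage for 30. In the other event types the 2-cell stage was lowest for 14.01%. Their PSI follows forms set by exon length, a retained intron or genomic order, so their shares are no baseline for exon inclusion. These are counts over called exons and were not tested. Leaving out the 2-cell stage, whose libraries differed most, 285 exons were called, of which 246 were among the 334.

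**Figure D5:**
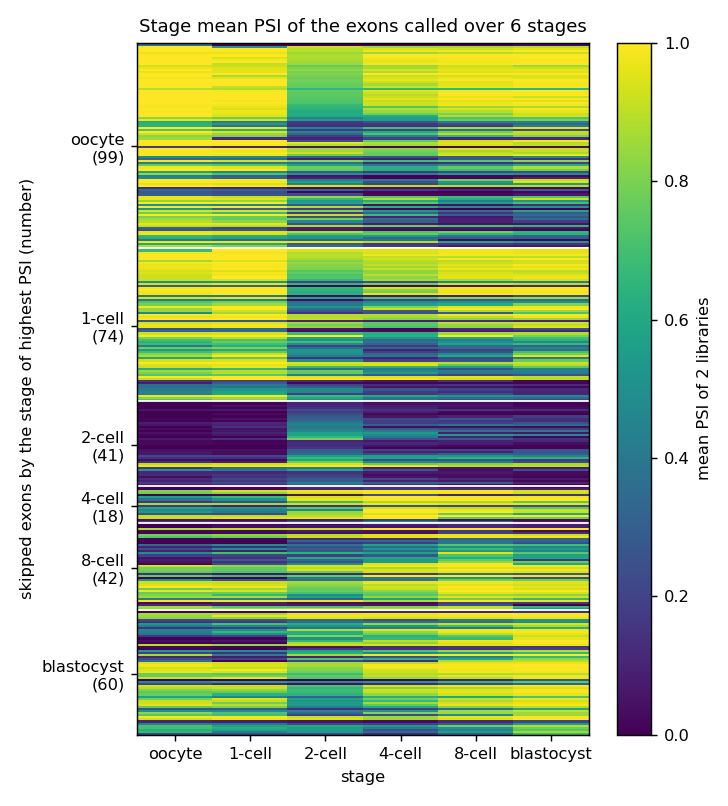
Each line of the heat map is 1 of the 334 skipped exons called over 6 stages, its colour the mean PSI of the 2 libraries of each stage (x axis) from 0 (dark) to 1 (yellow). Exons are grouped by the stage of their highest PSI, with the number in brackets, and in the upper blocks many exons are near 1 in oocytes and 1-cell embryos and lower at the 2-cell stage.

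Of the 5 exons with the largest range, those of Acads, Riok1 and Sclt1 changed between the 1-cell stage and later embryos. The Ceacam10 exon given above (range 0.902) rose from the 4-cell to the 8-cell stage. For Pemt the step could not be placed, because its libraries disagreed. The 164-base coding exon of Acads was at 0 in both oocyte and both 1-cell libraries, at 0.833 and 0.928 at the 2-cell, 0.799 and 0.848 at the 4-cell and 0.933 and 0.951 at the 8-cell stage, and at 1 and 0.972 in blastocysts (adjusted p = 0.000346, limma F test). The summed TPM of its forms was 1.16 to 5.43 before the 2-cell stage, so these first values rest on little RNA. Riok1 went the other way. Its 57-base exon was at 0.976 and 0.966 in oocytes, 0.970 and 0.961 at the 1-cell, 0.0952 and 0.375 at the 2-cell, 0.0625 and 0.0919 at the 4-cell and 0.0366 and 0.0550 at the 8-cell stage, and at 0.0703 and 0.0338 in blastocysts (adjusted p = 9.35e-05, limma F test). The summed TPM was 150.6 to 586 in the 4 libraries with high PSI and 10.6 to 29.8 after, and the long-read pools held only the inclusion form in oocytes and at the 1-cell stage and only the skipping form at the 2-cell, 8-cell and blastocyst stages.

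Sclt1, a protein of the distal appendages of centrioles, had a 61-base exon that is not in the annotation. Its PSI was 0.0657 and 0 in oocytes, 0.0363 and 0.0932 at the 1-cell, 0.662 and 0.643 at the 2-cell, 0.882 and 0.915 at the 4-cell and 0.979 and 0.984 at the 8-cell stage, and 1 in both blastocyst libraries (adjusted p = 0.000146, limma F test). From the 2-cell stage on its summed TPM was 1.46 to 5.88, and the forms differ elsewhere too. The 108-base exon of Pemt, which methylates phosphatidylethanolamine to phosphatidylcholine, was at 0.0316 and 0 in oocytes and 0.968 and 0.944 at the 4-cell and 0.987 and 0.991 at the 8-cell stage. Its libraries disagreed at the 1-cell (0.460 and 0), 2-cell (0.238 and 0.764) and blastocyst stages (0.975 and 0.225), while the oocyte libraries lay below those of the 4- and 8-cell stages without overlap (adjusted p = 0.0217, limma F test). The call was lost in 5 of 18 alternatives. Faim (chr9:98990915-98990971) had 0.751 and 0.791 at the 1-cell, 0.207 and 0.281 at the 2-cell, 0.132 and 0.050 at the 4-cell and 0.0265 and 0.0968 at the 8-cell stage, and 0.246 and 0.270 in blastocysts (adjusted p = 0.000539, limma F test). With Riok1 it is 1 of 2 named exons that lay high in oocytes and 1-cell embryos and below 0.4 in every later library and in sperm.

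Genes were also read by groups, from lists of gene names. Of the skipped exons in genes of splicing and RNA-binding factors 23 of 61 were called over the 6 stages (37.7%), of cell cycle and DNA repair 17 of 40 (42.5%), of translation, ribosome and mRNA decay 19 of 47 (40.4%) and of mitochondria and respiration 18 of 45 (40.0%). The counts were 10 of 30 for chromatin regulators, 12 of 43 for ubiquitin and proteasome, 7 of 27 for membrane trafficking, 7 of 23 for transcription factors and 4 of 17 for cytoskeleton, adhesion and polarity. They were 4 of 16 for spermatogenesis and flagellum, 3 of 16 for kinases, phosphatases and signalling, and 1 of 2 for oocyte and maternal-effect genes. The share over all skipped exons was 34.6%. The median range of stage means was 0.211 for splicing factors and 0.259 for cell cycle genes, against 0.183 for all tested exons. Lengths also varied between the lists, with no test: 58.8% of the 34 exons of chromatin regulators and 57.7% of the 26 of cytoskeleton genes were multiples of 3, against 32.1% of the 53 of transcription factors and 42.3% of all.

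A list of 79 genes known for regulated cassette exons was also followed, with the most abundant event of each gene. Of these genes, 21 had a measured event, 19 were tested over the 6 stages and 6 were called, against 34.6% of all skipped exons. Over all events of these genes 15 of 34 were called (44.1%). Nasp, a histone chaperone, had a coding exon of 975 bases with PSI 0.544 and 0.417 in oocytes, 0.764 and 0.963 at the 1-cell, 0.0767 and 0.192 at the 2-cell, 0.236 and 0.251 at the 4-cell and 0.297 and 0.295 at the 8-cell stage, and 0.704 and 0.747 in blastocysts (adjusted p = 0.00208, limma F test). The exon was thus lowest at the 2-cell stage in both libraries. Hnrnph1, a repressor or activator of splicing that binds G-rich sequence, had a 139-base exon at 0.394 and 0.318 at the 2-cell stage and at 0.585 or above in all other oocyte and embryo libraries (adjusted p = 0.0188, limma F test). This call was lost without the 2-cell stage (adjusted p = 0.501 by limma). The 85-base exon of Mdm2, the ubiquitin ligase of p53, was at 0.390 and 0.438 in oocytes and 0.873 and 0.860 in blastocysts (adjusted p = 0.00601, limma F test).

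The 91-base coding exon of Clk1, a kinase of SR proteins, was at 0.629 and 0.545 in oocytes and 0.504 and 0.573 at the 1-cell stage, and at 0.948 and 0.921 at the 4-cell and 0.882 and 0.918 at the 8-cell stage (adjusted p = 0.0196, limma F test). Its 2-cell libraries were far apart, at 0.961 and 0.537, and the call was lost in 4 of 18 alternatives. Ezh2, the histone H3K27 methyltransferase of Polycomb, had a 126-base exon that went from 0.697 and 0.567 in oocytes to 0.249 and 0.318 in blastocysts (adjusted p = 0.0141, limma F test). Its 4-cell, 8-cell and blastocyst libraries (0.249 to 0.372) lay below all oocyte, 1-cell and 2-cell libraries (0.508 to 0.697). The 73-base exon of Rbm39, a splicing coactivator, occurs only in annotated NMD transcripts. It was at 0.00690 and 0.00699 in oocytes and 0.00850 and 0.00594 at the 1-cell, 0.306 and 0.257 at the 2-cell, 0.0612 and 0.0428 at the 4-cell and 0.0813 and 0.119 at the 8-cell stage, and at 0.195 and 0.174 in blastocysts (adjusted p = 0.000651, limma F test). Nasp and Hnrnph1 were lowest and the Rbm39 exon highest at the 2-cell stage.

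Other exons of the list were not called or not tested. The 36-base exon of Hnrnpa2b1, which separates the B1 from the A2 form of this hnRNP, was a minor form in all libraries, from 0.0776 (1-cell 2) to 0.294 (2-cell 2), and was not called (range of stage means 0.176, adjusted p = 0.116, limma F test). The 36-base exon of Srsf7, an SR protein, was included at 0.857 to 0.963 throughout. It had an adjusted p of 0.0201 by the limma F test but a range of 0.058, under the 0.1 that a call needs. U2af1, the 3′ splice site factor, had a 67-base exon at 0.198 to 0.461, with a range of stage means of 0.203 (adjusted p = 0.114, limma F test). The 63-base exon of Dab2, an endocytic adaptor, was at 0.819 and 0.859 at the 8-cell stage (52.7 and 65.3 TPM) and 0.874 and 0.822 in blastocysts (298 and 84.7 TPM). At 5.07 TPM or less in earlier libraries, it was not tested over the 6 stages.

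Very short exons were few. Among the 35 exons of at most 27 bases, 21 had a length that is a multiple of 3 (60.0%, against 41.1% of other internal exons of this size). This difference was not tested, and only 8 of the 21 lay wholly or partly in coding sequence. Of the 35, 13 lay in coding sequence and 18 were absent from the annotation. Their median PSI was low, from 0.0867 to 0.471 over the libraries, with 17 to 31 of them measured in each. The rule named those called in some comparison, which were exons of Nsfl1c, Vps29, Denr, Itm2b, Zcchc7 and Slc7a6os. The 6-base exon of Nsfl1c, the p47 cofactor of the p97 ATPase in membrane fusion, was at 0.568 and 0.377 in oocytes, 0.354 and 0.30 at the 1-cell, 0.0770 and 0.0967 at the 2-cell, 0.00345 and 0.00846 at the 4-cell and 0.00994 and 0.0177 at the 8-cell stage, and at 0.111 and 0.0848 in blastocysts (adjusted p = 0.000200, limma F test). Oocyte and 1-cell libraries thus lay above all later ones, at a summed TPM of 4.11 to 32.9 against 28.6 to 232 later. The 20-base exon of Denr, a factor of translation reinitiation, was included at 0.845 and 0.890 at the 2-cell stage and at 0.975 and 0.967 in blastocysts (range 0.103, adjusted p = 0.0299, limma F test). The call was lost in 10 of 18 alternatives, with adjusted p up to 0.0918 by limma.

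The called exons of 1 and 3 bases lay outside the annotation. The 3-base exon of Itm2b, a membrane protein known for familial dementias in humans, was at 0.108 and 0.0661 in oocytes and 0.891 and 0.897 in sperm (limma adjusted p = 0.00924), and at 0.448 and 0.529 at the 8-cell stage. Sperm held 1394 and 10527 TPM of its forms, oocytes 26.7 and 33.3. A 3-base exon of Zcchc7 had 0 and 0.139 in oocytes and 0.462 and 0.725 in sperm (limma adjusted p = 0.0487), a call that was lost in 8 of 12 alternatives. A single base of Slc7a6os stood as an exon at 0.0381 and 0.00711 in oocytes and 0.298 and 0.373 in sperm (limma adjusted p = 0.0296), lost in 4 of 12 alternatives. Whether these 3 exons are placed correctly by the long-read alignment was not tested, since no genome sequence was used here. The same holds for all 12 skipped exons of at most 5 bases.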

How the data were processed

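Short-read libraries of amplified cDNA from pooled gametes and embryos (2 per stage, 14 in all) and long-read pools (1 per stage, 7 in all) were grouped by the stage and replicate in their titles. The titles of the 8-cell libraries number the replicates opposite to another of their labels, and the title was followed. Per the methods, the authors aligned long reads to mm10 with GMAP, merged the stages with Cuffmerge, and gave each merged transcript a TPM with salmon. They deposited exon coordinates and these TPM values, which keep no read depth. No column was left out as belonging to another sample (0).

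AS events were rebuilt from the merged exons after the strict SUPPA2 definitions within a locus. PSI per library is inclusion TPM over inclusion plus skipping TPM, described where that sum was at least 5. Places, frames and bases come from GENCODE release 21 on GRCm38, the assembly of mm10 (the methods name release 20). An annotated form has its introns in that release. Intervals are Wilson 95% intervals.

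The 6 comparisons used limma (eBayes with a trend) on log2((inclusion TPM + 1)/(skipping TPM + 1)), over all AS event types with a summed TPM of at least 1 in every library compared. The 6 stages were tested with limma's F over 12 libraries. Calls need a Benjamini-Hochberg adjusted p under 0.05 and a difference (or range of stage means) of PSI over 0.1.

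The exons, gene lists and rules were chosen with earlier results of these data known. Named are, per comparison, up to 4 called exons in each direction with the largest difference, a mean summed TPM of at least 10 and no overlap (2 if none was called, given as not called), the 5 with the largest range over 6 stages, listed cassette exons, and called exons of at most 27 bases. Alternatives were a pseudocount of 0.1, other filters, limma on PSI, adjusted p alone, shared or weighted spreads, a replicate block and each library left out. After the data were seen, a prior spread by summed TPM and the test without the 2-cell stage were added. Each test was also tested on simulated data that had the spread of each stage. There the F test called unchanged events too, also with the spread weighted by stage, and the 1-cell to 2-cell test recovered changed events only at the larger of the sizes tried. R 4.3.3, limma 3.58.1, Python 3.11.15, numpy 2.4.6, pandas 2.3.3, scipy 1.17.1 and matplotlib 3.10.9 were used.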

Additional observations from a re-analysis of the deposited data

How the results depend on the processing

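The counts of called exons depended strongly on the test. From 4-cell to 8-cell (30) the count was 0 with a pseudocount of 0.1, 0 on PSI, 0 with a replicate block, 0 to 0 with any library left out, 2 in 1 fit of 12 libraries, 115 with the spread weighted by stage (all 30 shared), 57 with no filter, 52 by adjusted p alone and 49 with the prior spread by summed TPM. From oocyte to sperm (123) it was 61 with a summed TPM of at least 5, 81 on PSI, 187 with the replicate block, 243 in 1 fit of all 14 libraries, and 0 to 44 with 1 library left out. The lone 1-cell to 2-cell call was 0 with a pseudocount of 0.1, on PSI, with the replicate block and with any library left out (0 to 0), and 208, 71 and 2 in the fit of 12 libraries, the weighted fit and with the prior by TPM. From 2-cell to 4-cell (0) it was 14 in the fit of 12 libraries and 0 to 65 with 1 library left out, 65 without 2-cell replicate 2. The fit of 12 libraries called 1 from oocyte to 1-cell and 3 from 8-cell to blastocyst, and the weighted fit 16 in the latter. Over the 6 stages (334) the count was 216 with a summed TPM of at least 5, 301 with the replicate block, and 239 to 390 with 1 library left out. The cause of these differences was not tested.

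The share of multiples of 3 was 45.7% among exons with all 3 introns annotated. The median PSI of exons that keep the frame minus the rest was −0.0452 and −0.0814 in sperm with summed TPM of at least 1 and 20, −0.0222 and −0.00560 in blastocysts, 0.012 at the 2-cell and −0.0197 at the 4-cell stage with at least 20. Of 63 results for named exons, none reversed over the alternatives, where 788 values stayed on the same side of the threshold (called or not), 123 lost a call and 23 gained one.

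The replicate numbers were not shown to pair the samples: correlations of same-numbered deviations between stages were −0.077, −0.223, 0.186, −0.080, 0.282 and 0.125 over 2810 events. With 2 libraries per stage and an unknown read depth, a difference of PSI that was not called is not shown to be absent.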
